A study of Mus musculus with 12 samples.

Results

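The comparison described here is that of male mice with a tongue tumor (MT) against normal male mice (MN). It rests on 6 of the 12 RNA-seq libraries of the series, 3 in each group, chosen by their labels, and on the 13322 genes with enough reads in these libraries to be tested, of 22609 genes counted. All mice were athymic nude Balb/c mice aged 6 to 8 weeks, which lack mature T cells. In MT, the tongue had been inoculated with 350000 HSC3 cells, which derive from a squamous cell carcinoma of the human mouth. The tongue was injected on day 13 with wheat germ agglutinin (WGA), which is taken up at nerve endings and transported to the cell body. On day 15 the trigeminal ganglia (TG) were dissociated and WGA-positive cells sorted. An MN sample pooled 4 TGs from 2 mice, both sides of each, whereas an MT sample pooled the 4 ipsilateral TGs of 4 mice. The pools therefore differed in the number of animals and in side as well as in the tumor, and these cannot be told apart from the tumor. The sample labels state that normal mice received no cells, while the methods of the study state that they received a human oral keratinocyte line, so whether the MN tongues had been injected was not settled here. The strength of the WGA solution also differs between these sources, 0.5% in the labels and 1% in the methods. A single tumor line was used, and nothing in the labels says that pools within a group came from separate litters or days, so that p values measure the spread between pools.

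The TG holds the cell bodies of the sensory neurons that serve the face and mouth, including those that carry pain, itch, touch and temperature from the tongue. Subtypes of these neurons differ in their ion channels, peptides and G protein-coupled receptors. When the peripheral axon of a sensory neuron is injured, the cell is known to switch on a program of transcription factors, peptides and structural proteins that accompanies axon regrowth. Satellite glia wrap each cell body, and Schwann cells wrap the axon.

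Each library held 7112207 to 8922011 reads assigned to a gene, and reads mapped to several places made up 43.0% to 45.5% of all reads. Values are given as CPM, a gene's reads per 1000000 reads assigned to genes in that library, always in the order MN replicates 1, 2 and 3 and then MT replicates 1, 2 and 3. The first principal component of the 6 libraries held 37.2% of the variance and set MT replicate 3 apart (40.0) from the other 5 libraries (-28.8 to 9.11). The second held 22.1% and separated the MN (12.2 to 23.2) from the MT libraries (-19.1 to -13.2). MT replicate 3 weighs on some results, and for many of these the value without it is given.

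The sorted cells carried the markers of sensory neurons. The summed CPM of 24 such markers was 31430, 31360 and 29840 in MN and 32220, 31490 and 28360 in MT, so the groups overlapped. Of these 24, 1 was higher and 4 lower at an unadjusted p under 0.05, and 6 and 4 without MT replicate 3. Among them, Tubb3, a neuronal tubulin, read 4141, 4122 and 3772 CPM in MN and 3994, 4273 and 3902 CPM in MT. The markers of other cells are described further on.

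Of the 13322 genes tested, 6 (0.045%) had an adjusted p under 0.05, of which 5 (0.0375%) rose in MT and 1 (0.00751%) fell. Unadjusted, 922 genes (6.92%) had a p under 0.05, and 1542 genes did when MT replicate 3 was left out. Counts over gene lists without that library stand against this larger number, which was not split by direction. Those over all 6 libraries stand against 3.7% of all genes tested higher and 3.22% lower. The study's criteria for DEGs ask for an unadjusted p under 0.05 and a change of more than 1.5-fold. They also ask for a mean RPKM (CPM per kilobase of exon) above 5 in MN or MT. These criteria were met by 117 genes (0.878%), 89 of them (0.668%) higher and 28 (0.21%) lower in MT. Groups did not overlap for 65 of the 89 and 23 of the 28, while over all genes tested 5.91% lay higher without overlap and 7.45% lower. The criteria select on these same values, so the larger share among the selected genes follows from the selection and lends them no support. In what follows, "rose" and "fell" are used of the 6 genes alone, and other genes are given as higher or lower with their unadjusted p. The median log2 fold change was 0.75 for the 89 genes and -0.71 for the 28.

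**Figure D1:**
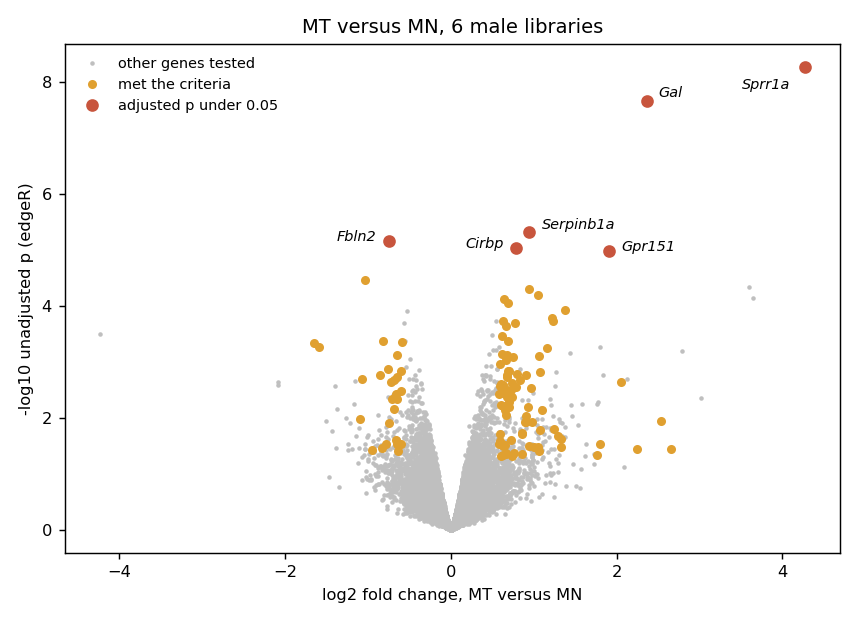
Log2 fold change of MT versus MN (x axis) against -log10 of the unadjusted p of edgeR's test (y axis) for the 13322 genes tested. The 6 genes with an adjusted p under 0.05 are named, the 111 other genes that met the criteria are in yellow, and Sprr1a at 4.27 and Gal at 2.37 stand farthest up and to the right.

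Sprr1a, a small proline-rich protein that appears in sensory neurons after axon injury, showed the largest rise among genes with an adjusted p under 0.05. It read 2.81, 1.34 and 3.33 CPM in MN and 47.9, 43.3 and 51.6 CPM in MT. The MT pools lay within a narrow range and all above each MN pool, with a log2 fold change of 4.27 (SE 0.24, adjusted p = 7.14e-05). The gene lies at chr3:92287877-92289816 on the minus strand of mm9.

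Gal encodes galanin, a peptide that sensory neurons are known to raise after nerve injury. Its values were 61.4, 41.6 and 63.7 CPM in MN and 253, 273 and 326 CPM in MT. Every MT pool lay far above every MN pool, with a log2 fold change of 2.37 (SE 0.15, adjusted p = 0.000142). The gene is at chr19:3409919-3414472, minus strand. Gpr151, an orphan G protein-coupled receptor, read 4.36, 5.94 and 8.84 CPM in MN and 21.0, 26.4 and 24.3 CPM in MT. Its log2 fold change was 1.91 (SE 0.24, adjusted p = 0.0234), again with no overlap.

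The other genes with an adjusted p under 0.05 changed less but were tight within each group. Serpinb1a, a serpin that inhibits neutrophil proteases, lies at chr13:32933961-32943054. It read 141, 172 and 158 CPM in MN and 314, 299.9 and 281 CPM in MT, a log2 fold change of 0.95 (SE 0.11, adjusted p = 0.0213). Cirbp, an RNA-binding protein induced by cold, at chr10:79628730-79635531, read 68.9, 67.6 and 69.3 CPM in MN and 118, 123 and 111 CPM in MT. The spread within MN was 0.901 CPM (SD, n = 3) around a mean of 68.6, and the log2 fold change was 0.79 (SE 0.10) with an adjusted p of 0.0234. Fbln2, which encodes fibulin 2, a protein of the extracellular matrix, at chr6:91162449-91222534, fell from 154, 158 and 153 CPM in MN to 86.0, 89.6 and 98.4 CPM in MT. It fell by 0.75 on the log2 scale (SE 0.09, adjusted p = 0.0225) and was the only gene lower in MT to pass this threshold. In bulk samples such as these, fewer cells of a type and less RNA per cell cannot be told apart.

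**Figure D2:**
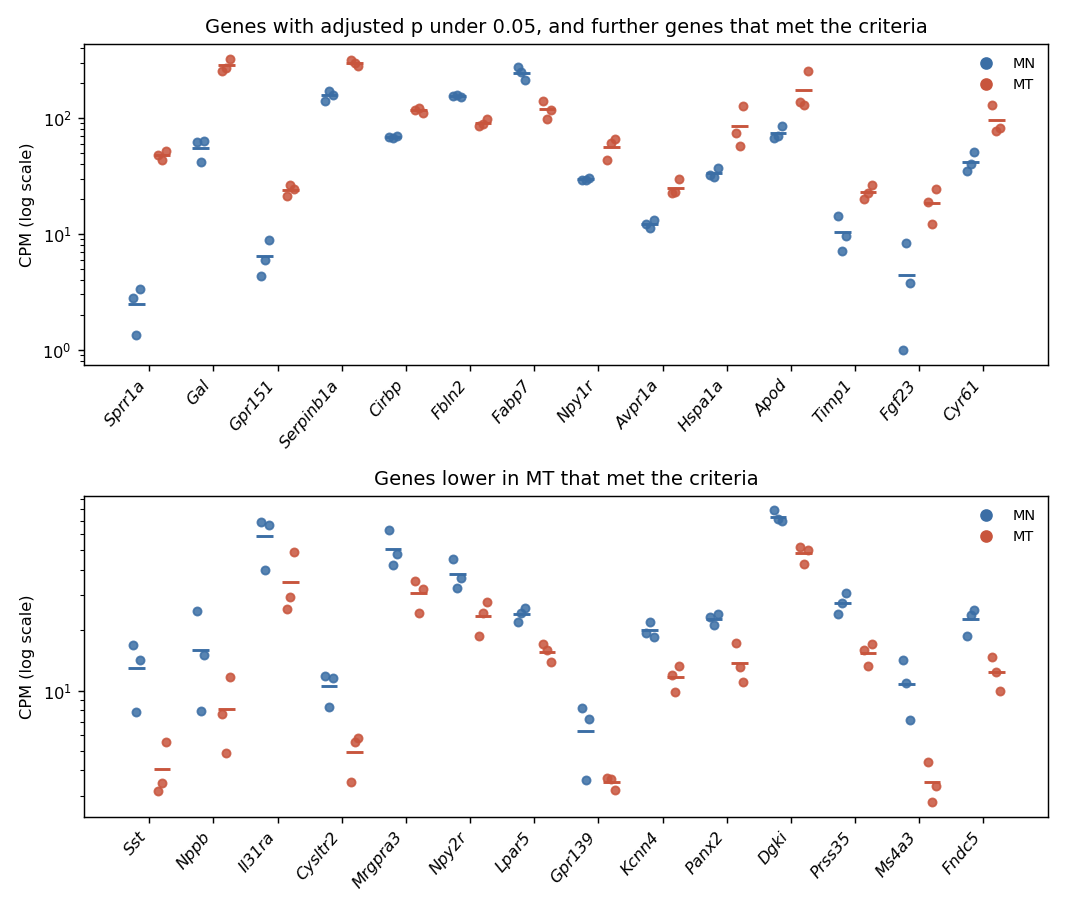
CPM (log scale) of selected genes in each of the 3 MN and 3 MT libraries, with the mean of each group as a bar; the upper panel shows the 6 genes with an adjusted p under 0.05 and 8 others that met the criteria, and the lower panel shows 14 of the 28 genes lower in MT. Sprr1a moves from 1.34 to 3.33 CPM in MN to 43.3 to 51.6 CPM in MT, and the MN and MT points of Nppb, Gpr139 and Il31ra overlap.

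The sequences before the start sites of 5 of these genes are shown because they hold, or lack, short motifs of factors known for stress and activity responses. They are the 250 bases before the RefSeq start (build GRCm38.p6, which is not the build of the counts), in lower case with 3 motifs in capitals: AP-1 (TGANTCA), the cAMP response element or CRE (TGACGTCA) and a core of the heat shock element (GAANNTTC). Each of these motifs reads the same on both strands, and none of the capitals overlap. Hspa1a, a heat shock protein, and Sst, the peptide somatostatin, are described further on.
Sprr1a, chr3:92485882-92486131, minus strand: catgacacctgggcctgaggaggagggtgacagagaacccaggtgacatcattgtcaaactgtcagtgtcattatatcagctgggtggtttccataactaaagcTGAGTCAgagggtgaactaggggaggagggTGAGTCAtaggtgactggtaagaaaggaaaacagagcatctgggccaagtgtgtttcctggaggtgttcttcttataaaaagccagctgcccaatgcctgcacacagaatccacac
Gal, chr19:3414545-3414794, minus strand: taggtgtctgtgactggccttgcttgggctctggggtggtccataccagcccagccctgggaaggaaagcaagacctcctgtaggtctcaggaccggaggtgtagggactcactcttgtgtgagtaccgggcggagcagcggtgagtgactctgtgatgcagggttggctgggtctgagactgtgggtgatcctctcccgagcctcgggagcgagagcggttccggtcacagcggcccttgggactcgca
Fbln2, chr6:91212514-91212763, plus strand: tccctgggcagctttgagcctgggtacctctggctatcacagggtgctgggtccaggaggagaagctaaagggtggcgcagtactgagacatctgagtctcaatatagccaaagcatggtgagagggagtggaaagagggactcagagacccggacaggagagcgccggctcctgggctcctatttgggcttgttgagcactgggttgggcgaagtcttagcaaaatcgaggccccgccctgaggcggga
Hspa1a, chr17:34972157-34972406, minus strand: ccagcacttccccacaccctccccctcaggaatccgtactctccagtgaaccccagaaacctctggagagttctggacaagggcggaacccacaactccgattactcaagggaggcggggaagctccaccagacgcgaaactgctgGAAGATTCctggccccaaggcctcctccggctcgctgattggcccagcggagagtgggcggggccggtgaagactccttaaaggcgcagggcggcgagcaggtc
Sst, chr16:23890845-23891094, minus strand: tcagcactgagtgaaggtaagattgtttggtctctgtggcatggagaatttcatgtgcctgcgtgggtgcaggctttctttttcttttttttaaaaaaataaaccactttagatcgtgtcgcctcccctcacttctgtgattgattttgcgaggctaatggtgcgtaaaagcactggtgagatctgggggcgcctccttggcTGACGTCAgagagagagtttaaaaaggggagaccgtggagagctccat

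Sprr1a held the AP-1 letters TGAGTCA at 2 places, beginning 146 and 116 bases before the start. Hspa1a held GAAGATTC 104 bases before the start, and Sst held the CRE 48 bases before it. None of the 3 motifs was in the windows of Gal and Fbln2. Over the 27025 genes in the table of start sites, 7.82% held AP-1, 1.77% the CRE and 7.73% the heat shock core in at least 1 window of this length, so a match is a description of the letters and no more. Start sites were matched for 66 of the 89 higher and 19 of the 28 lower genes, under the 80% set as the least for comparing shares, so none are compared.

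Neuropeptides are released from sensory nerve endings and in the brainstem. Of 22 listed, 13 were tested, and 5 were higher (38.5%, against 3.7% of all genes tested) and 2 lower (15.4%, against 3.22%) at an unadjusted p under 0.05. Next to galanin, Npy, which encodes neuropeptide Y and is known to appear in injured sensory neurons, held 5 reads over the 3 MN libraries and 62 over the 3 MT libraries, a ratio of 13.2 (95% interval 5.36 to 42.1, counting error only). Its log2 fold change was 3.64 (unadjusted p = 7.25e-05, adjusted p = 0.0848), and its level was too low for the criteria. Nts, which encodes neurotensin, read 6.47, 7.96 and 14.3 CPM in MN and 23.6, 12.2 and 25.2 CPM in MT. MT replicate 2 lay below the highest MN pool, and the unadjusted p was 0.00721.

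The precursors of the main peptides of pain and vasodilation differed less. Tac1, the precursor of substance P, read 839, 708 and 661 CPM in MN and 867, 916 and 1144 CPM in MT, without overlap (log2 fold change 0.42, unadjusted p = 0.00489). Calca, the precursor of calcitonin gene-related peptide, read 4265, 3295 and 3316 CPM in MN and 4589, 3905 and 4160 CPM in MT and overlapped (0.24, unadjusted p = 0.0754). Adcyap1, which encodes the peptide PACAP, had a log2 fold change of 0.37 (unadjusted p = 0.0128).

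Sst and Nppb, which mark a set of itch-sensing neurons, were both lower, whereas the peptide gene Nts, given above, was higher (1.10). No list of the markers of these neurons was counted, so the genes given here do not stand for the set. Sst read 16.9, 7.85 and 14.2 CPM in MN and 3.14, 3.47 and 5.56 CPM in MT. All MT pools lay under all MN pools, with a log2 fold change of -1.65 (SE 0.33, unadjusted p = 0.000462, adjusted p = 0.205). Nppb, the peptide BNP, read 25.0, 7.96 and 15.0 CPM in MN and 7.67, 4.86 and 11.7 CPM in MT, which overlapped (-0.96, unadjusted p = 0.038). Il31ra, the receptor of the itch cytokine interleukin 31, read 69.2, 39.9 and 67.1 CPM in MN and 25.4, 29.3 and 49.1 CPM in MT (-0.75, unadjusted p = 0.0123). MT replicate 3 lay inside the MN range, and without it the log2 fold change of Il31ra was -1.06. Cysltr2, a receptor of cysteinyl leukotrienes, read 11.8, 8.29 and 11.6 CPM in MN and 3.52, 5.56 and 5.80 CPM in MT, with no overlap (-1.07, unadjusted p = 0.00204).

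G protein-coupled receptors moved in both directions, 6 of 34 tested being higher (17.6%, against 3.7% of all genes) and 5 lower (14.7%, against 3.22%). Their median log2 fold change was -0.15 against 0.003 for all genes. On the higher side, Npy1r, a receptor of neuropeptide Y, read 29.4, 29.3 and 30.2 CPM in MN and 43.8, 60.3 and 65.7 CPM in MT (0.94, SE 0.14, adjusted p = 0.0735). Avpr1a, a vasopressin receptor, read 12.1, 11.3 and 13.2 CPM in MN and 22.4, 22.9 and 29.8 CPM in MT (1.05, adjusted p = 0.0838). Both were separated without overlap and had an adjusted p under 0.05 when MT replicate 3 was left out (0.034 and 0.049). The cholecystokinin receptors Cckar and Cckbr were also higher, Cckbr at 0.984, 2.24 and 2.18 CPM in MN and 6.16, 4.86 and 8.03 CPM in MT, a level too low for the criteria (1.801, unadjusted p = 0.000548). Cckar read 20.5, 28.0 and 20.9 CPM in MN and 34.6, 40.3 and 30.004 CPM in MT (0.61, unadjusted p = 0.00599).

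On the lower side, Mrgpra3, Npy2r and Lpar5 met the criteria. So did Gpr139 (-0.83), Adora2b (-0.66) and Cysltr2, given above, which is not in the list counted. Mrgpra3, a receptor of chloroquine-responsive itch neurons, read 62.8, 42.3 and 48.1 CPM in MN and 35.1, 24.5 and 32.1 CPM in MT (-0.72, unadjusted p = 0.0023). Npy2r, another receptor of neuropeptide Y, read 45.3, 32.6 and 36.6 CPM in MN and 18.6, 24.3 and 27.7 CPM in MT (-0.68, unadjusted p = 0.00215). Lpar5, a lysophosphatidic acid receptor, read 21.9, 24.4 and 25.7 CPM in MN and 16.98, 16.0 and 13.8 CPM in MT (-0.61, unadjusted p = 0.00338). Mrgpra3, Npy2r and Lpar5 did not overlap between groups. Mrgprd, which marks nonpeptidergic nociceptors, read 756, 758 and 619.8 CPM in MN and 613, 534 and 528 CPM in MT (-0.33, unadjusted p = 0.0168), and the mu opioid receptor Oprm1 had a log2 fold change of -0.31 (unadjusted p = 0.0468).

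Among channels of nociceptors 5 of 30 tested were lower (16.7%) and 1 higher (3 without MT replicate 3), with a median of -0.13, and none met the criteria. Scn11a, the sodium channel Nav1.9, read 215.5, 211 and 258.5 CPM in MN and 137, 145 and 187 CPM in MT (-0.53, SE 0.12, unadjusted p = 0.00121). Scn10a, the sodium channel Nav1.8, was an abundant member at 1163, 1058 and 1017 CPM in MN and 873, 891 and 939 CPM in MT (-0.25, unadjusted p = 0.0157). Both were lower without overlap. The heat-gated channel Trpm3 read 14.6, 15.0 and 16.8 CPM in MN and 7.67, 10.1 and 10.6 CPM in MT (-0.69, unadjusted p = 0.00391), and Piezo2, the channel of touch, and Kcnk18, a potassium channel, had log2 fold changes of -0.27 and -0.28. The capsaicin receptor Trpv1 read 223, 190.1 and 180.2 CPM in MN and 150.2, 188 and 260.4 CPM in MT, with a log2 fold change of 0.02 (unadjusted p = 0.896), and Trpa1, the receptor of irritants, had 0.24 (unadjusted p = 0.185). The channel that was higher was Cacna2d1, the calcium channel subunit that gabapentin binds (0.37, unadjusted p = 0.0111). Among channel genes outside that list, Panx2 and Kcnn4 met the criteria and were lower. Panx2, a pannexin, read 23.2, 21.2 and 24.1 CPM in MN and 17.2, 13.1 and 10.99 CPM in MT (-0.71, unadjusted p = 0.0047), and Kcnn4, a calcium-gated potassium channel, read 19.4, 22.0 and 18.6 CPM in MN and 11.9, 9.86 and 13.2 CPM in MT (-0.76, unadjusted p = 0.00131).

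Among receptors of neurotrophic factors and cytokines, 6 of 28 tested were lower and 2 higher, and without MT replicate 3, 9 of 29 were lower and 2 higher. The shared signaling chain of the interleukin 6 family, Il6st, read 131, 124 and 151 CPM in MN and 77.9, 109.9 and 112 CPM in MT (-0.43, unadjusted p = 0.00968). Its partners Lifr and Cntfr were lower as well, Lifr from 1183, 1213 and 1315 CPM in MN to 896, 1007 and 1146 CPM in MT (-0.27, unadjusted p = 0.015) and Cntfr by -0.46 (unadjusted p = 0.0391). Ret, the signaling receptor of the GDNF family, had a log2 fold change of -0.29 (unadjusted p = 0.0224) and Ntrk2, the receptor of BDNF, -0.37 (unadjusted p = 0.0137). The death receptor Fas read 7.59, 6.28 and 10.7 CPM in MN and 13.2, 11.7 and 21.6 CPM in MT (0.93, unadjusted p = 0.00636), without overlap.

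Genes of the axon injury response were mostly higher. Of 22 tested, 14 (63.6%) were higher at an unadjusted p under 0.05 and none were lower, with a median log2 fold change of 0.50. Sprr1a, Gal, Gpr151 and Serpinb1a, 4 of the 6 genes with an adjusted p under 0.05, belong to this list. The list was chosen with earlier results of these data known, so its counts and members are descriptions only. Atf3, a transcription factor of injured neurons, was less clear, at 82.7, 158 and 124 CPM in MN and 184, 171 and 186 CPM in MT (0.58, SE 0.19, unadjusted p = 0.0118). Gap43, a protein of growing axons, read 339, 299 and 289.6 CPM in MN and 381, 369 and 365 CPM in MT (0.28, unadjusted p = 0.0137). Csf1, the growth factor that injured sensory neurons make for microglia, read 14.5, 17.4 and 20.9 CPM in MN and 27.2, 28.2 and 32.7 CPM in MT (0.75, unadjusted p = 0.000824). All 3 lay higher in MT without overlap. Jun and Sox11, transcription factors of the same program, had log2 fold changes of 0.06 (unadjusted p = 0.595) and -0.11 (unadjusted p = 0.481), and both overlapped. Slc6a4, the serotonin transporter, is outside the list and read 0.141, 0.672 and 1.72 CPM in MN and 6.67, 10.7 and 14.8 CPM in MT (3.60, adjusted p = 0.0735), at a level too low for the criteria.

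**Figure D3:**
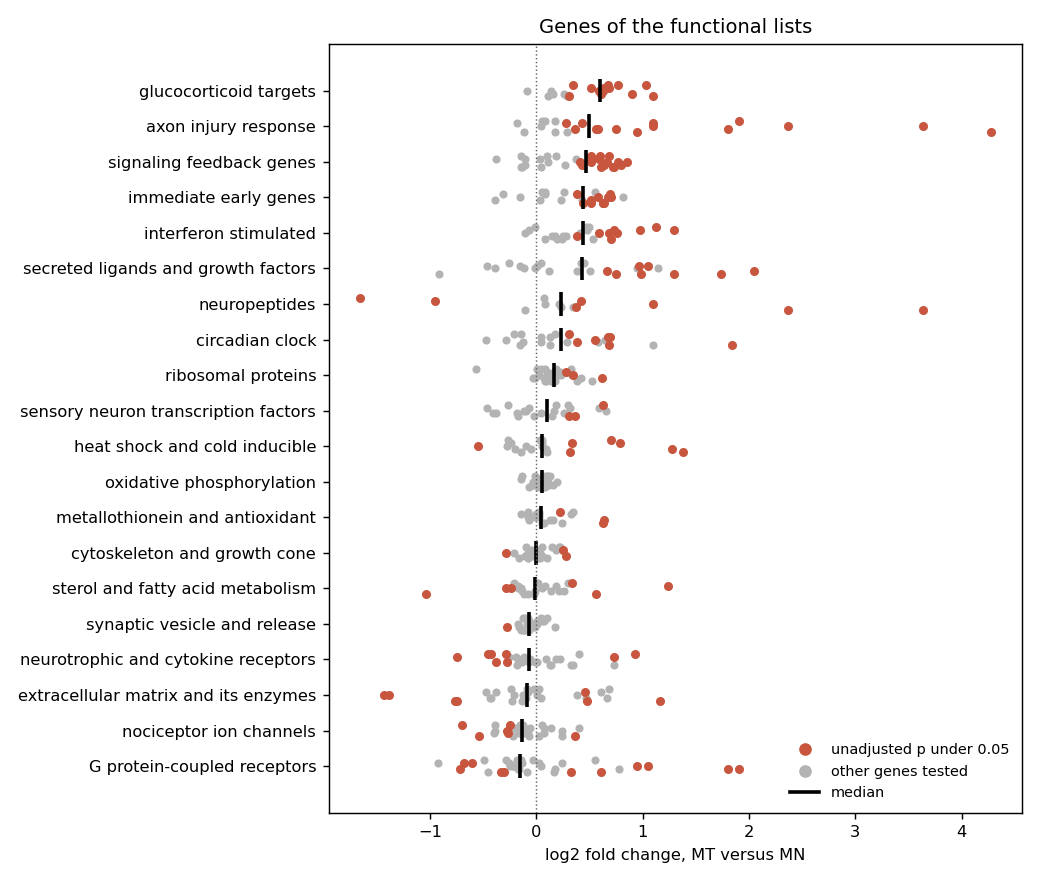
Log2 fold change of MT versus MN (x axis) for each tested gene of the 20 functional lists (rows, ordered by median), with genes at an unadjusted p under 0.05 in red, other genes in gray and the median as a bar. Glucocorticoid targets (0.60, and 0.44 without MT replicate 3) and axon injury genes (0.50) have the highest medians and G protein-coupled receptors (-0.15) the lowest, and synaptic and oxidative phosphorylation genes lie close to 0.

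Immediate early genes respond within minutes to activity or stress, also to dissociation of tissue. Of 23 tested, 11 were higher (47.8%) and none lower, with a median of 0.44. Fos read 215, 340.3 and 306 CPM in MN and 477, 374 and 478 CPM in MT (0.64, unadjusted p = 0.00277). Egr1 read 94.9, 148 and 106 CPM in MN and 238, 164 and 156 CPM in MT (0.70, unadjusted p = 0.00637), and Ier3 read 90.8, 92.1 and 90.8 CPM in MN and 176, 127 and 113 CPM in MT (0.62, unadjusted p = 0.00324). None of these overlapped, although MN replicate 2 lay close under the MT pools for Fos and Egr1.

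Among genes that damp signaling 17 of 30 tested were higher (56.7%) and none lower, with a median of 0.47. Socs3, the inhibitor of cytokine receptor signaling, read 78.2, 131 and 93.4 CPM in MN and 187, 135 and 175 CPM in MT (0.73, unadjusted p = 0.00315). Zfp36, which speeds the decay of cytokine mRNA, is listed with the immediate early genes and read 88.9, 100.3 and 129 CPM in MN and 186, 133 and 184 CPM in MT (0.68, unadjusted p = 0.00171). Nfkbia, the inhibitor of NF-kB, read 111, 93.0 and 142 CPM in MN and 161, 152 and 203 CPM in MT (0.59, unadjusted p = 0.00268). The closest MN and MT pools were nearly level for Socs3 and Zfp36, but no pools crossed. Tifa, an adaptor of NF-kB signaling that overlaps Ap1ar on the other strand, was tight at 40.8, 45.4 and 41.3 CPM in MN and 63.1, 69.5 and 62.4 CPM in MT (0.63, SE 0.11, adjusted p = 0.128). Gadd45b, Phlda1 and Rgs16 also met the criteria, with log2 fold changes of 0.79, 0.73 and 0.68.

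Known targets of the glucocorticoid receptor had the highest median of the functional lists, 0.60, with 13 of 20 tested higher (65%) and none lower. Without MT replicate 3 the counts were 12 and 1 and the median was 0.44, under the 0.52 of the axon injury genes. Several of the higher members, among them Zfp36, Dusp1, Per1, Mt1, Mt2 and Anxa1, are counted in other lists as well. Fkbp5 and Tsc22d3, also in this list, overlapped between groups (0.29, unadjusted p = 0.125, and 0.14, unadjusted p = 0.26). Cebpd, a transcription factor of the acute phase, read 37.4, 38.6 and 51.0 CPM in MN and 73.2, 63.5 and 77.4 CPM in MT (0.77, SE 0.14, adjusted p = 0.128). Sgk1, a kinase of salt and stress responses, read 61.2, 66.2 and 92.0 CPM in MN and 112, 119 and 99.8 CPM in MT (0.61, unadjusted p = 0.00248). The metallothioneins Mt1 and Mt2, which bind zinc and copper, were higher together. Mt1 read 174, 183 and 229 CPM in MN and 301, 329 and 261 CPM in MT (0.62, unadjusted p = 0.000709), and Mt2 had a log2 fold change of 0.63 (unadjusted p = 0.0062). In the list of metallothioneins and antioxidants, only these and the ferritin chain Fth1 (0.22, unadjusted p = 0.014) of 20 tested genes were higher, and Hmox1, heme oxygenase, had a log2 fold change near 0 with an unadjusted p of 0.993. Without MT replicate 3, 5 of this list were higher.

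Among clock genes 7 of 22 were higher and none lower, with a median of 0.23, and 7 were higher and 1 lower without MT replicate 3, with a median of 0.06. Per1, a clock repressor that glucocorticoids also induce, read 38.8, 52.8 and 55.9 CPM in MN and 63.0, 88.8 and 84.3 CPM in MT (0.69, unadjusted p = 0.00146). Bhlhe40, another repressor, which overlaps 0610040F04Rik on the other strand, read 50.1, 56.4 and 48.3 CPM in MN and 96.0, 72.7 and 78.8 CPM in MT (0.69, unadjusted p = 0.00043). Both lay higher without overlap. Per2 and Dbp overlapped between groups (0.58 and 0.13), and Per2 had a log2 fold change of -0.43 without MT replicate 3, in which it read 12.2 CPM against 2.14 to 4.71 CPM in the other 5 libraries.

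Heat shock genes differed in direction from each other. Hspa1a, the inducible HSP70, read 32.2, 30.7 and 36.7 CPM in MN and 73.8, 57.8 and 126 CPM in MT (1.38, SE 0.23, adjusted p = 0.107). Its near copy Hspa1b had a log2 fold change of 1.28, and reads that fit both genes would be passed over in the counting. Hsph1, a partner of HSP70, went the other way at 286, 285 and 273 CPM in MN and 195, 207 and 169 CPM in MT (-0.55, unadjusted p = 0.000417). The constitutive Hspa8 had 0.06 (unadjusted p = 0.532). Over the 20 genes tested 6 were higher and 1 lower, and the median was 0.06 (7 and 3 without MT replicate 3, with a median of 0.11). The 2 cold-inducible RNA-binding proteins in this list were both higher, Cirbp as given above and Rbm3 at 13.4, 11.4 and 8.84 CPM in MN and 17.7, 16.9 and 19.4 CPM in MT (0.70, unadjusted p = 0.00418). The mean RPKM of Rbm3 was 2.39 in MN and 3.84 in MT, under the level the criteria ask for.

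Interferon-stimulated genes were higher for 9 of 24 tested (37.5%) and lower for none, but MT replicate 3 weighed on this count, which was 4 higher and 2 lower without it. Irgm1, an immunity-related GTPase, held without overlap at 19.0, 19.3 and 16.1 CPM in MN and 30.3, 23.8 and 33.6 CPM in MT (0.71, unadjusted p = 0.00148). Igtp, a GTPase of the same family, read 22.5, 23.4 and 26.0 CPM in MN and 32.3, 32.9 and 49.4 CPM in MT (0.68, unadjusted p = 0.0019). Its log2 fold change was 0.48 without MT replicate 3. By contrast Rsad2, an antiviral enzyme, read 13.2, 12.3 and 21.3 CPM in MN and 18.6, 17.5 and 43.2 CPM in MT, and its difference came from the last pool (0.76, and 0.25 without it). Cxcl10, a chemokine that interferon induces and that overlaps Art3 on the other strand, read 6.89, 5.49 and 1.49 CPM in MN and 16.6, 7.92 and 8.77 CPM in MT (1.30, unadjusted p = 0.0215).

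Secreted ligands had 8 of 24 tested higher, none lower and a median of 0.43, against 6 of 25 higher, 1 lower and a median of 0.16 without MT replicate 3. Fgf23, a hormone of phosphate balance, varied widely within MN, at 0.984, 8.41 and 3.79 CPM, and read 19.0, 12.2 and 24.4 CPM in MT (2.05, SE 0.51, unadjusted p = 0.00229). Fst, which encodes follistatin, an inhibitor of activin, read 6.47, 11.4 and 7.46 CPM in MN and 16.4, 19.0 and 14.0 CPM in MT (0.97, unadjusted p = 0.00297). The matricellular proteins Cyr61 and Ctgf, targets of YAP, differed in how well they separated. Cyr61, which is not in the list counted, read 34.9, 39.9 and 50.8 CPM in MN and 128, 77.7 and 82.5 CPM in MT (1.22, SE 0.21, adjusted p = 0.128). Ctgf overlapped at 72.4, 38.8 and 100.2 CPM in MN and 94.8, 114 and 205 CPM in MT (0.98, unadjusted p = 0.0118). Bdnf, brain-derived neurotrophic factor, read 175, 155 and 123 CPM in MN and 233, 217 and 146 CPM in MT. It overlapped (0.42, unadjusted p = 0.0532) and had a log2 fold change of 0.62 without MT replicate 3 (unadjusted p = 0.000417). The inflammatory cytokine Il1b was at 16.9 CPM in MT replicate 3 and at 2.39 to 4.82 CPM in the other 5 libraries.

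Matrix genes had 3 of 28 higher and 4 lower, with a median of -0.09, and 1 of 29 higher and 10 lower without MT replicate 3, with a median of -0.30. Apart from Fbln2, the lower ones were Tnc, which encodes tenascin C, and the collagens Col3a1 and Col1a1, all at single-digit CPM. Tnc read 3.51, 4.93 and 7.69 CPM in MN and 2.26, 3.06 and 0.617 CPM in MT (-1.43, unadjusted p = 0.0172). On the higher side, Timp1, the inhibitor of matrix metalloproteinases, read 14.3, 7.17 and 9.64 CPM in MN and 19.9, 22.4 and 26.5 CPM in MT (1.17, unadjusted p = 0.000555). It lies within Syn1 on the opposite strand, and whether the counting used strand is not given in the sources used here. Outside the matrix list, Serpina3h and Serpina3f, serpins of the acute phase, were both higher without overlap. They have near-identical neighbors, and reads that fit more than 1 of these genes would be passed over in the counting. Serpina3h read 178, 213 and 213 CPM in MN and 287, 305 and 340.2 CPM in MT (0.64, SE 0.10, adjusted p = 0.0848). Plat, tissue plasminogen activator and also outside the list, read 32.9, 36.2 and 44.5 CPM in MN and 46.7, 53.1 and 71.6 CPM in MT (0.60, unadjusted p = 0.00363).

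In lipid metabolism there was no common direction, with 3 of 23 higher and 3 lower (5 and 6 without MT replicate 3). The 2 that met the criteria were carriers rather than enzymes. Fabp7, the fatty acid-binding protein of satellite glia, read 277, 249 and 215 CPM in MN and 141, 98.5 and 117 CPM in MT, without overlap (-1.04, SE 0.15, adjusted p = 0.0641). Apod, apolipoprotein D, read 67.2, 70.4 and 85.7 CPM in MN and 138, 129.9 and 256 CPM in MT (1.24, SE 0.22, adjusted p = 0.128). Fasn, fatty acid synthase, read 183, 150.3 and 156 CPM in MN and 137, 155 and 156 CPM in MT (-0.11, unadjusted p = 0.294).

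The genes of the neuron's own machinery showed few differences. None of 32 genes of oxidative phosphorylation had an unadjusted p under 0.05, and their log2 fold changes ran from -0.14 to 0.19. Of 25 synaptic genes 1 was lower, Sv2c, and of 26 genes of the cytoskeleton and growth cone 2 were higher, Gap43 and Tuba1a, and 1 was lower, Mapt, which encodes tau (-0.29, unadjusted p = 0.0116). Ribosomal protein genes had a median of 0.17 with 3 of 31 higher, and many have near-identical copies, so that reads unique to a gene are few. Among 22 transcription factors of sensory neurons 3 were higher, Hes1, Hes6 and Runx1. Without MT replicate 3, 3 genes of oxidative phosphorylation, 2 synaptic genes, 6 of the cytoskeleton and growth cone and 4 of the transcription factors were higher while 2 of the last were lower, and the medians of these lists lay between -0.01 and 0.15. Hes1, a repressor downstream of Notch, read 21.1, 27.7 and 26.2 CPM in MN and 40.6, 31.3 and 43.0 CPM in MT (0.63, unadjusted p = 0.00263).

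**Figure D4:**
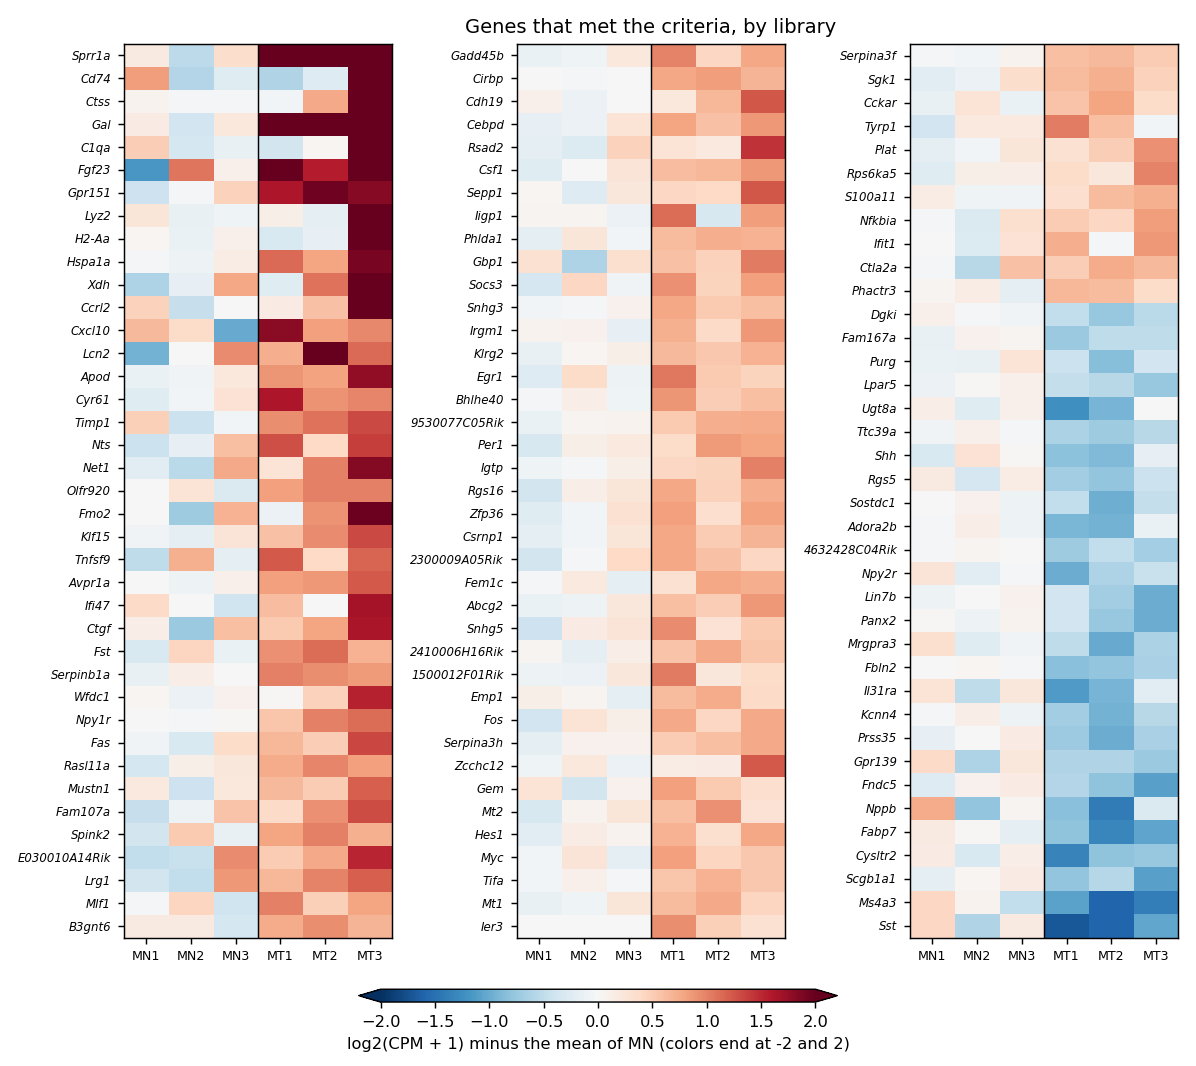
Log2(CPM + 1) minus the mean of the MN libraries for 116 of the 117 genes that met the criteria (rows, from the largest rise to the largest fall, in 3 columns) in each of the 6 libraries. MT replicate 3 alone is dark red for Cd74, C1qa, Lyz2 and H2-Aa, whereas Gal, Sprr1a and Gpr151 are red in all 3 MT libraries.

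Markers of other cells showed how far single pools differ. The summed CPM of 24 macrophage markers was 86.8, 57.2 and 72.2 in MN, 50.9 and 62.2 in MT replicates 1 and 2, and 556 in MT replicate 3. All 13 of these markers that were tested had a log2 fold change above 0, with a median of 1.73, and the median was -0.26 without MT replicate 3. Lyz2, lysozyme of macrophages, read 11.7, 8.63 and 9.07 CPM in MN and 10.6, 8.34 and 83.6 CPM in MT. Cd74, the invariant chain of MHC class II, read 8.86, 2.69 and 3.67 CPM in MN and 2.64, 3.61 and 88.5 CPM in MT. Both met the criteria with overlapping groups. Altogether 12 of the 89 higher genes had a value in MT replicate 3 more than 2 times that of every other library, namely C1qa, Ccrl2, Cd74, Ctss, Fmo2, H2-Aa, Ifi47, Lyz2, Rsad2, Wfdc1, Xdh and Zcchc12. Without this library 59 of the 89 higher and 24 of the 28 lower genes still met the criteria. Among the genes that then missed the 1.5-fold limit were Igtp, Sepp1, Plat, Nfkbia, S100a11 and Hes1. Their log2 fold changes without MT replicate 3 were 0.48, 0.43, 0.44, 0.48, 0.54 and 0.57. Lpar5 and Panx2 missed that limit on the lower side, at -0.50 and -0.54.

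Summed glial markers were lower in MT replicates 1 and 2 than in each MN pool. Summed over 20 markers of satellite glia, CPM was 6694, 6368 and 7374 in MN and 5594, 5701 and 7097 in MT, with 1 of 19 tested markers higher and 3 lower (median -0.09). Without MT replicate 3, 2 were higher and 7 lower (median -0.35). Apoe alone held 3700, 3280 and 3968 CPM of this sum in MN and 2774, 2730 and 3870 CPM in MT, so the sum leans on 1 gene. The higher marker over all 6 libraries was Cdh19, at 51.2, 43.7 and 48.1 CPM in MN and 55.1, 76.3 and 114 CPM in MT. It did not overlap (0.79, unadjusted p = 0.00287). Ugt8a, the enzyme that makes the galactolipids of myelin, read 33.6, 25.6 and 32.7 CPM in MN and 12.5, 15.4 and 30.6 CPM in MT (-0.64, SE 0.27, unadjusted p = 0.0388). MT replicate 3 lay inside the MN range, and without it the log2 fold change was -1.09 (adjusted p = 0.027). The summed CPM of 15 markers of myelinating Schwann cells was 2436, 2319 and 2442 in MN and 1838, 2104 and 2853 in MT. Of 15 tested, 2 were lower, and 10 were lower without MT replicate 3. In that fit more of all genes also had an unadjusted p under 0.05 (1542 against 922). The part of glial cells in the lower Fabp7 and Ugt8a was not tested. In MT replicate 3, Ugt8a was level with MN whereas Fabp7 was not.

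Summed endothelial markers overlapped, at 741 to 1757 CPM in MN and 865 to 2220 CPM in MT, as did those of pericytes (121 to 205 and 143 to 318 CPM) and of neutrophils and their precursors (27.7 to 78.7 and 49.0 to 132 CPM). Fibroblast markers were at 195 to 265 CPM in MN and 291 to 507 CPM in MT without overlap. The highest MT value was 320.3 CPM without replicate 3. Apod, described above, is among these markers, at 67.2 to 85.7 CPM in MN and 129.9 to 256 CPM in MT. Taken without Apod, the sums of the groups overlap. Of 12 fibroblast markers tested, 3 were higher and 2 lower with a median of 0.44. Without MT replicate 3, 1 was higher and 3 lower, with a median of 0.17. Markers of B cells (201 to 235 CPM in MN, 229 to 234 CPM in MT), red blood cells (36.7 to 52.9 and 26.1 to 53.5 CPM), pituitary (101 to 151 and 133 to 152 CPM), airway epithelium (213 to 249 and 206 to 224 CPM) and skeletal muscle (48.0 to 60.6 and 37.0 to 65.5 CPM) overlapped as well. These sums rest on few genes. Those with enough reads to be tested were 1 of 12 for B cells and 1 of 9 for red blood cells. They were 2 of 14 for pituitary, 4 of 16 for airway epithelium and 4 of 15 for skeletal muscle. In such lists, genes that met the criteria and were low in all libraries were Ms4a3 of myeloid precursors at 14.2, 10.9 and 7.11 CPM in MN and 4.40, 2.78 and 3.33 CPM in MT (-1.58, unadjusted p = 0.000542), and Scgb1a1 of airway epithelium at 3.37 to 4.59 CPM in MN and 1.36 to 2.36 CPM in MT (-1.10, unadjusted p = 0.0103).

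**Figure D5:**
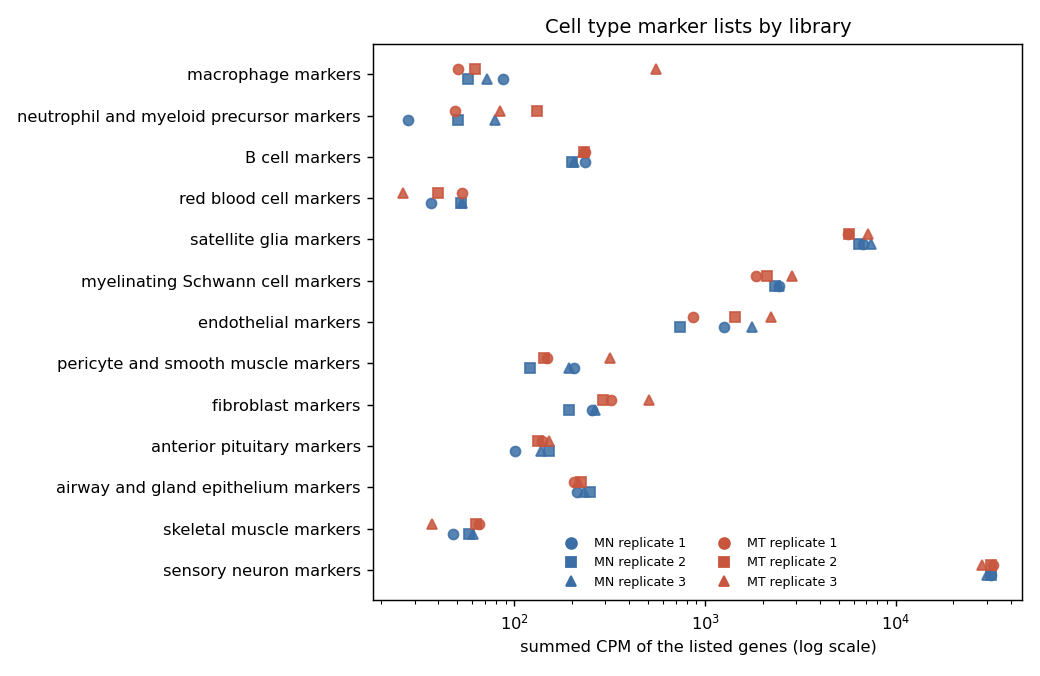
Summed CPM (log scale) of the genes of 13 cell type marker lists in each library, with MN in blue, MT in red and the replicate shown by the shape of the point. The macrophage markers of MT replicate 3 lie at 556 CPM against 50.9 to 86.8 CPM in the other 5 libraries, and the sensory neuron markers lie at 28360 to 32220 CPM in all 6.

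Other lower genes met the criteria. Dgki, a diacylglycerol kinase, read 79.2, 71.5 and 69.7 CPM in MN and 51.9, 42.8 and 50.0 CPM in MT (-0.59, SE 0.12, unadjusted p = 0.000441). Prss35, a serine protease, read 24.2, 27.3 and 30.5 CPM in MN and 16.0, 13.2 and 17.04 CPM in MT (-0.81, SE 0.16, unadjusted p = 0.000419). Fndc5, the precursor of irisin, read 18.7, 23.9 and 25.4 CPM in MN and 14.7, 12.4 and 10.0 CPM in MT (-0.85, unadjusted p = 0.0017). These 3 did not overlap. Shh, the ligand of hedgehog signaling, and Adora2b, an adenosine receptor, were nearer to their MN values in MT replicate 3, Shh at 10.8, 16.8 and 13.9 CPM in MN and 7.29, 6.95 and 12.1 CPM in MT. Rgs5, a regulator of G protein signaling and one of the pericyte markers listed, read 53.7, 37.3 and 52.7 CPM in MN and 28.7, 27.1 and 34.7 CPM in MT (-0.65, unadjusted p = 0.00184).

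Further higher genes are given here, chosen after their values were seen. Abcg2, a transporter that pumps drugs and urate out of cells, read 179, 184 and 230.1 CPM in MN and 299, 276 and 361 CPM in MT (0.67, SE 0.12, adjusted p = 0.135). Sepp1, the plasma carrier of selenium, read 301, 245 and 344 CPM in MN and 390.4, 387 and 697 CPM in MT (0.74, unadjusted p = 0.00419). It was highest in MT replicate 3 but did not overlap. Klf15, a transcription factor that glucocorticoids induce, read 8.01, 7.40 and 10.3 CPM in MN and 13.3, 17.2 and 22.8 CPM in MT (1.06, unadjusted p = 0.000782). Myc, one of the immediate early genes listed, read 32.8, 41.0 and 29.8 CPM in MN and 61.3, 46.7 and 50.4 CPM in MT (0.63, unadjusted p = 0.00295), and S100a11, a calcium-binding protein, read 31.1, 26.3 and 26.7 CPM in MN and 35.6, 43.8 and 46.5 CPM in MT (0.60, unadjusted p = 0.00109). None of these overlapped. Lcn2, an iron-sequestering protein of the acute phase, and Lrg1, a leucine-rich glycoprotein, varied more than this within MN, Lcn2 from 10.4 to 41.1 CPM and Lrg1 from 24.8 to 65.1 CPM, and both overlapped.

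Snhg3, Snhg5, 2410006H16Rik and 1500012F01Rik, picked after their values were seen because they overlap or host small nucleolar RNAs, met the criteria and were higher. No count of all such genes was made. Snhg3 read 8.44, 8.63 and 9.41 CPM in MN and 15.8, 13.1 and 13.8 CPM in MT (0.71, unadjusted p = 0.0036). The gene 2410006H16Rik, which overlaps Snord49a, Snord49b and Snord65 on the same strand, read 20.5, 17.3 and 21.7 CPM in MN and 29.8, 34.0 and 29.4 CPM in MT (0.67, unadjusted p = 0.000923). Snhg5 and 1500012F01Rik, the latter overlapping Snord12, had unadjusted p of 0.0445 and 0.0308. In each of the 4 genes every MT pool lay above every MN pool.

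Of the 54 genes that the study names for this comparison, 44 met the criteria here. The other 10 were Gm2058, Rbm3, Chi3l3, Irak3, Anxa1, Rps19, Dll4, Fasn, Usp2 and Gm129. Of these, 8 passed the limits on p and fold but not the limit on RPKM, which was 1.49 to 4.63 in their higher group. RPKM here divides by the combined length of all annotated exons of a gene in GENCODE M1, so it falls below a value computed from a shorter gene model. Gm2058 held 20 reads over the 3 MN libraries and 4 over the 3 MT libraries, a ratio of 0.213 (95% interval 0.0529 to 0.636, counting error only), which was too few to test. Anxa1, an annexin that glucocorticoids induce, read 5.34, 2.02 and 4.13 CPM in MN and 5.91, 8.47 and 9.88 CPM in MT (1.10, unadjusted p = 0.0106).

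The same contrast in females, FT against FN, differs in libraries and not only in sex, since FN replicate 2, FT replicate 2 and FT replicate 3 had 56.0%, 68.4% and 52.6% of reads mapped to several places. In a fit of all 12 libraries, the interaction of sex and tumor had an adjusted p under 0.05 for 0 genes by edgeR's test (0%), with 203 of 13835 (1.47%) at an unadjusted p under 0.05. By DESeq2 it was 0 and 283 genes. Sprr1a read 8.55, 167 and 53.7 CPM in FN and 33.1, 105 and 114 CPM in FT, so it overlapped in females, and the difference of its log2 fold changes was -4.16 (SE 1.18, unadjusted p = 0.00332). Gal in females read 109, 1245 and 383 CPM in FN and 237, 1205 and 747 CPM in FT. FN replicate 2 was thus above all 6 male libraries for both genes. Sst read 5.28, 7.44 and 4.25 CPM in FN and 6.58, 37.0 and 8.37 CPM in FT. None of the 117 lay in the same direction without overlap in both sexes. The share of all genes without overlap between FN and FT was not counted. This count is therefore not read as a difference between the sexes.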

How the data were processed

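RNA of WGA-positive TG cells was sequenced from 3 MN and 3 MT pools. According to the submitters' processing notes and the methods, SMART-seq2 libraries were sequenced as single reads of 50 bases, base calls were made with CASAVA 1.8.2, and reads were aligned to mm9 with TopHat2 and counted with HTSeq. Annotation, strand setting and the other versions are not given in the sources used here. The deposited values are whole-number counts per gene symbol, not normalized by the authors. Lines of reads assigned to no gene (76.3% to 78.7% of all reads) were left out, which left 7112207 to 8922011 reads per library. Since HTSeq passes over reads mapped to several places, near-identical genes are undercounted. The libraries hold no molecular identifiers, so intervals cover counting error only.

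The 6 libraries were fitted alone by the quasi-likelihood test of edgeR 4.0.16 (R 4.3.3), after filterByExpr (a minimum count of 10 and 15 in total) and TMM scaling, and p values were adjusted over the 13322 genes tested by the Benjamini-Hochberg method. The SE is the log2 fold change divided by the square root of its F statistic. The difference between the sexes was tested as an interaction over 12 libraries. RPKM used the exon length of GENCODE M1, which also gave the mm9 positions. No pair of libraries agreed within sampling noise (chi-square per degree of freedom 5.91 to 21.2).

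Genes named were those with an adjusted p under 0.05, the 15 largest rises and 15 largest falls without overlap among genes that met the criteria, genes that the study names for MT versus MN, and in each of 33 gene lists (20 of function and 13 of cell types) the members that met the criteria or else up to 6 with the highest CPM. Other genes, such as Npy, Slc6a4, Cckbr, Trpm3, Scn11a, Hsph1 and Il6st, the genes led by MT replicate 3 and the motifs and promoters shown were chosen after their values were seen. The members and lists were chosen with earlier results of these data known, so counts over lists are descriptions.

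Alternatives were DESeq2 1.42.0, limma-voom (limma 3.58.1), other size factors, filters and thresholds, a replicate block, fits with the female libraries, and fits without each library. On simulated counts for MT versus MN (13322 genes), edgeR called 74 of 100 genes changed 2-fold, 94 of 100 changed 4-fold and 18 unchanged genes. Other steps used Python 3.11.15, pandas 2.3.3, numpy 2.4.6, scipy 1.17.1 and matplotlib 3.10.9. Promoters were credited to the RefSeq table of GRCm38.p6. Some genes are not reported here.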

Additional observations from a re-analysis of the deposited data

How the results depend on the processing

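The number of genes with an adjusted p under 0.05, 6 in the main test, was 51 by DESeq2, 20 without the count filter, 12 with a replicate block, and 0 when the female libraries entered the fit (12 or 10 libraries), where 59 and 318 genes had an unadjusted p under 0.05. It ran from 2 to 34 when 1 library was left out, with 2 without MN replicate 1, MN replicate 2 or MT replicate 2, 9 without MT replicate 1 and 34 without MT replicate 3. The 117 genes that met the criteria became 21 with 12 libraries, 30 at a 2-fold threshold and 250 with an RPKM over 1, and 96 to 195 when 1 library was left out, the highest without MT replicate 1. Without MT replicate 3 the share of higher genes fell from 76.1% of 117 to 56.6% of 159. When 1 library was left out, log2 fold changes ran from -0.22 to 2.76 for C1qa, -0.63 to 3.29 for Cd74 and -0.26 to 2.23 for H2-Aa, each lowest without MT replicate 3. The difference between the sexes gave 0 genes at an adjusted p under 0.05 in each alternative run. Of the other values, 1720 for named genes kept direction and side of the threshold, 70 passed it newly and 27 no longer passed it, and 441 list medians stayed within the replicate spread while 21 did not. Whether the replicate numbers pair the samples was not settled. Same-numbered deviations from the group means correlated at 0.0387, 0.147 and 0.239. MN replicates 1 and 2 each correlated best with an MT replicate of another number, and MN replicate 3 with MT replicate 3. Such a check over 3 pools a group cannot exclude a pairing. Apart from the named cases the cause of these changes was not tested. With 3 pools a group, changes can be missed, also those of 2-fold or more. In the simulation, edgeR called 74 of 100 genes changed 2-fold and 94 of 100 changed 4-fold.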
